A study of Mus musculus with 18 samples.

Results

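Layer II of the entorhinal cortex holds the neurons that send the main cortical input into the hippocampus, and it is an early site of neurofibrillary pathology in Alzheimer's disease. In rodents its excitatory neurons fall into stellate cells, which make the secreted glycoprotein reelin (Reln), and pyramidal cells, many of which contain the calcium buffer calbindin (Calb1) and the endoplasmic reticulum membrane protein wolframin (Wfs1). The 9 genes described here are used as marks of these cells and of superficial excitatory neurons in general: Reln, Calb1 and Wfs1, the transcription factors Rorb, Cux1, Cux2, Mef2c and Lef1, and Slc17a7, which encodes the vesicular glutamate transporter VGLUT1. They were taken by symbol, matched to their Ensembl identifiers, and make up 9 of the 39017 genes in the count tables. All 9 passed the filter on low counts in both experiments.

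The libraries hold RNA recovered with ribosomes by translating ribosome affinity purification (TRAP) from mouse brain, 1 library per mouse with both entorhinal cortices pooled. The silencing experiment compared 4 mice injected with a vector for an shRNA that targets Ptbp1 (Ptbp1 shRNA) with 5 mice given a scrambled shRNA vector. The overexpression experiment compared 5 mice injected with a Ptbp1 vector (Ptbp1 overexpression) with 4 given a control vector. Every vector carried mCherry, and 1 mouse with the Ptbp1 shRNA and 1 with the control vector had been left out by the authors for lack of mCherry reads. Ptbp1 encodes polypyrimidine tract binding protein 1, a repressor of neuronal exons. Genotype, strain, age, sex and the promoter behind the tagged ribosomal protein were not stated in the sources used here. All 18 libraries carry a tissue label of hippocampus, although the study is described by its title and design as one of the entorhinal cortex.

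Libraries held 34339355 to 46544178 gene counts in silencing and 18288627 to 39056655 in overexpression, and 14841 to 17908 against 19893 to 21456 genes had at least 1 count. Well covered exon bins (mean count 50 or above over all libraries) were empty for 1.24% to 8.3% in the silencing libraries, against 0.0213% to 0.0551% in the overexpression libraries, and the common biological coefficient of variation was 90.1% in silencing and 22.3% in overexpression. Levels are in CPM, reads of a gene relative to the library's total with TMM scaling computed within each experiment, so levels of the 2 experiments are set side by side only. Ptbp1 itself had 6.57, 0.101, 0.588 and 13.1 CPM in the Ptbp1 shRNA libraries, against 3.38, 0.93, 6.72, 0.349 and 9.11 CPM in the scrambled shRNA libraries, and the groups overlapped (log2 difference of -0.18 at a pseudocount of 0.5 CPM, exact two-sided permutation p = 0.921). The edgeR log2 fold change had the other sign, 0.31 (95% interval -2.43 to 3.05), from means of 5.09 CPM in the Ptbp1 shRNA and 4.1 CPM in the scrambled shRNA libraries. It had 136, 143, 158, 129 and 118 CPM in the Ptbp1 overexpression libraries, against 17.2, 13.5, 9.96 and 12.3 CPM in the control vector libraries, a log2 difference of 3.34 (exact two-sided permutation p = 0.0159, the smallest that 5 libraries against 4 allow). A lower Ptbp1 level with the shRNA was therefore not seen at the RNA level in these libraries, and directions in silencing refer to the libraries labelled Ptbp1 shRNA.

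Of the marker lists for other cells, those of the hippocampus summed to 2.37 to 14 CPM in the Ptbp1 shRNA and 0.973 to 28.7 CPM in the scrambled shRNA libraries, and to 21 to 24.4 CPM in the Ptbp1 overexpression and 14.6 to 29 CPM in the control vector libraries. The 9 identity genes summed to 808 to 1470 CPM in the Ptbp1 shRNA, 1780 to 2230 in the scrambled shRNA, 1690 to 2310 in the Ptbp1 overexpression and 1880 to 2150 in the control vector libraries. The hippocampal sum was below the identity gene sum in each library, but the lists hold different genes at different levels. The comparison of sums therefore cannot tell hippocampus from entorhinal cortex. Mef2c was the largest part of the identity gene sum in each library. Deep layer genes summed to 1360 to 1680 CPM in the Ptbp1 shRNA and 1970 to 2310 CPM in the scrambled shRNA libraries. Endothelial markers reached at most 17.8 CPM and microglial markers at most 25.9 CPM in any library, and oligodendrocyte markers summed to between 63 and 176 CPM. Interneuron markers summed to 238 to 501 CPM and astrocyte markers to 326 to 1040 CPM over all 18 libraries. Slc1a2, a glutamate transporter, made up most of the astrocyte sum, at 554 ± 211 CPM in the Ptbp1 shRNA, 850 ± 156 in the scrambled shRNA, 459 ± 145 in the Ptbp1 overexpression and 547 ± 96.6 in the control vector libraries. Gfap, Aqp4, Slc1a3, Gja1 and Aldh1l1 averaged 12.5 CPM or less in every group. Aldoc averaged 61.9 ± 22.8 CPM in the Ptbp1 overexpression and 53.2 ± 11.4 CPM in the control vector libraries, and S100b 17.7 and 11.6 CPM. In silencing, Aldoc averaged 7.83 CPM in the Ptbp1 shRNA and 5.72 CPM in the scrambled shRNA libraries, and S100b 1.36 and 4.36 CPM.

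Per kilobase of annotated exon, the transporter and Mef2c led and Lef1 came last in all 4 groups. In the Ptbp1 overexpression libraries, Slc17a7 averaged 180 ± 55.7 CPM per kb, Mef2c 131 ± 9.11, Calb1 23.6 ± 8.56, Reln 14.4 ± 4.82, Wfs1 11.4 ± 3.25, Cux2 5.71 ± 1.42, Cux1 4.26 ± 0.776, Rorb 4.13 ± 0.233 and Lef1 2.42 ± 0.925 (SD, n = 5). The control vector libraries had the same order of group means. Ranges of neighbours in that order overlapped in the Ptbp1 overexpression libraries for Slc17a7 and Mef2c, for Calb1, Reln and Wfs1, and for Cux2, Cux1 and Rorb. In silencing Mef2c stood first, at 99.1 ± 44.1 CPM per kb in the Ptbp1 shRNA libraries (n = 4) and 180 ± 20.5 in the scrambled shRNA libraries (n = 5), and Slc17a7 second, at 58.5 ± 24.1 in the Ptbp1 shRNA and 71.7 ± 24.6 in the scrambled shRNA libraries. Rorb had rank 5 in the Ptbp1 shRNA group and rank 4 in the scrambled shRNA group, and rank 8 in both groups of the overexpression experiment. With the exon length of all annotated transcripts, Mef2c averaged 39.6 CPM per kb in the Ptbp1 shRNA, 71.8 in the scrambled shRNA, 52.3 in the Ptbp1 overexpression and 51.2 in the control vector libraries, and the order of genes changed only for Reln and Rorb in the Ptbp1 shRNA group.

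**Figure D1:**
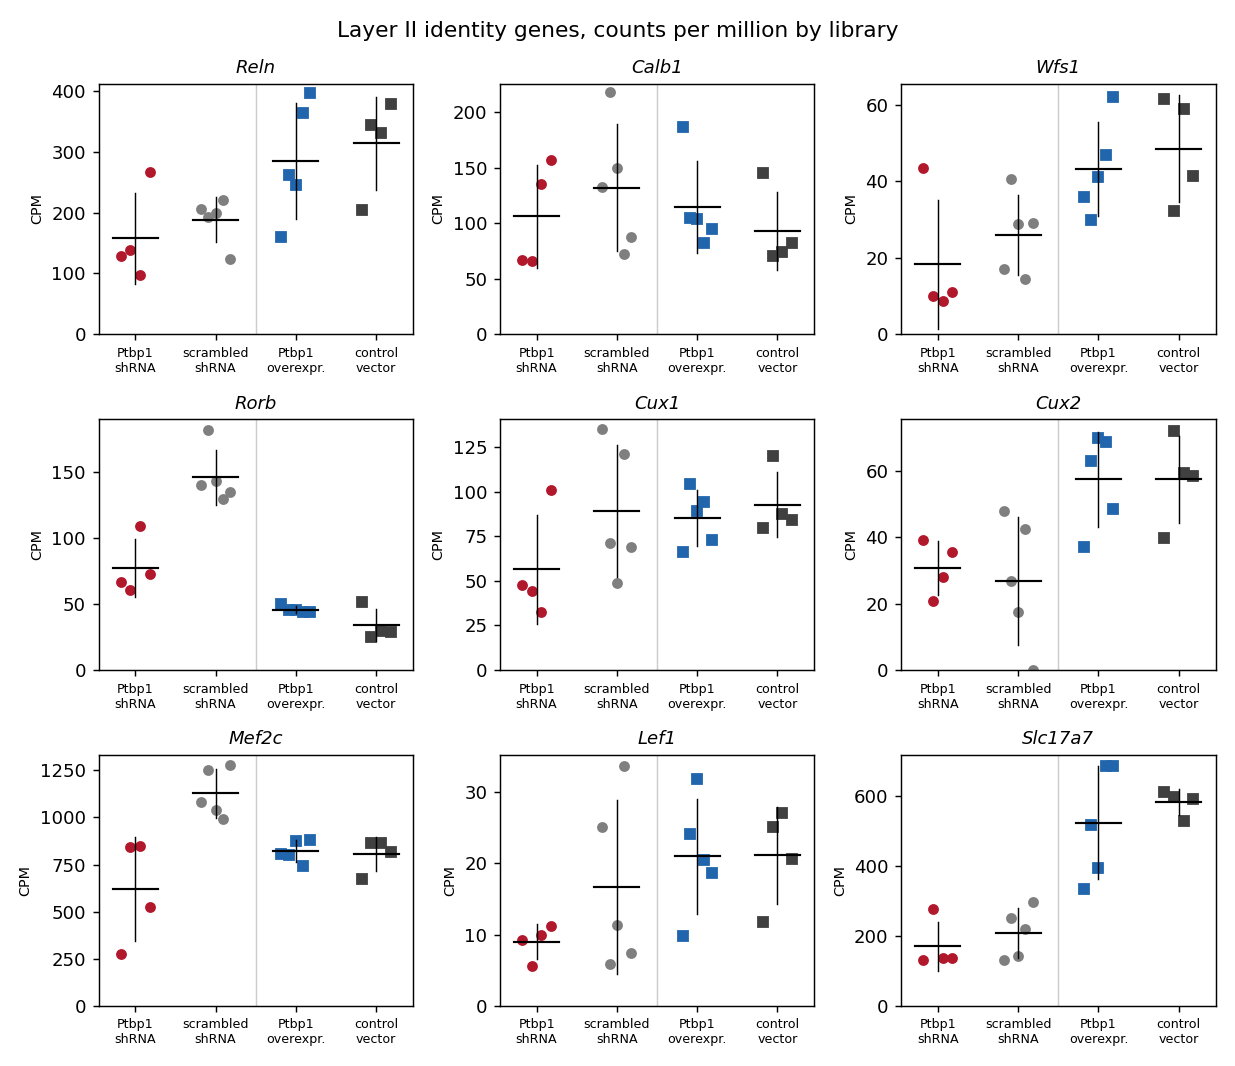
Level of each of the 9 layer II identity genes in CPM (vertical axis, from 0), 1 point per library, with the group mean (horizontal line) and SD (vertical line); silencing is left of the grey line and overexpression right of it. Rorb and Mef2c are the genes whose Ptbp1 shRNA libraries all lie below all scrambled shRNA libraries, and 1 scrambled shRNA library lies at the foot of the Cux2 panel, at 0.0324 CPM.

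Rorb (Ensembl ENSMUSG00000036192) encodes the orphan nuclear receptor RORβ and is annotated with a distal and a proximal start on the minus strand of chromosome 19 (chr19:18930605-19111196, GRCm38). It is the member with the smallest unadjusted p in both experiments, and its 2 starts can be told apart in the exon counts. Both RefSeq promoters are shown because first exon reads lay at only one of them; the 250 bases before the start are in lower case and the first 50 transcribed bases in capitals (RefSeq, GRCm38.p6, minus strand, chr19:19111147-19111446 for the distal and chr19:19001068-19001367 for the proximal start).
Rorb distal start: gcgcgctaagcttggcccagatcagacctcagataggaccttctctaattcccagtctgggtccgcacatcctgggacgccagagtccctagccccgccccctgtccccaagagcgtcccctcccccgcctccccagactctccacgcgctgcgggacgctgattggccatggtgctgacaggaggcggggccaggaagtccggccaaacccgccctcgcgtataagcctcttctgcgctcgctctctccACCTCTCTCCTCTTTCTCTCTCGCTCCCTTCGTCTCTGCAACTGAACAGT
Rorb proximal start: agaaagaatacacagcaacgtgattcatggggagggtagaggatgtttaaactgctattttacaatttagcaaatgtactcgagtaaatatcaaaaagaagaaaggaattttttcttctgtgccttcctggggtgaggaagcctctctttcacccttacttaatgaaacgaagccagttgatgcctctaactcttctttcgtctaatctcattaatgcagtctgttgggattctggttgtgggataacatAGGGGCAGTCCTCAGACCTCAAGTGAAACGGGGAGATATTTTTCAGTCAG
The distal promoter holds 20 CG dinucleotides and has 63.7% G and C, and the proximal one 5 and 41%. Over the 32851 promoters of the table the median was 7 CG, 26.5% held at least 20 and 62% at least 5.

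All reads that could be assigned to a Rorb first exon lay in the distal one. The distal first exon (chr19:19110552-19111196) had 44 reads in the Ptbp1 shRNA, 166 in the scrambled shRNA, 191 in the Ptbp1 overexpression and 80 in the control vector libraries, between 5 and 103 in each library. The proximal first exon (chr19:19001007-19001117) had 0 reads in each of the 18 libraries. With all libraries pooled this is 0 of 481 first exon reads, 103 of them from 1 library. Taking 3 reads as the limit for a count of 0, this allows a share of reads of up to 0.624% by counting error alone. The proximal exon is also shorter, at 111 bases against 645, and its reads would be fewer at equal use. The limit is therefore not one on the use of the proximal start.

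In silencing, Rorb had 66.7, 61, 109 and 72.6 CPM in the Ptbp1 shRNA libraries, against 140, 182, 143, 130 and 135 CPM in the scrambled shRNA libraries. The highest Ptbp1 shRNA library lay below the lowest scrambled shRNA library. The log2 fold change was -0.92 (SE 0.25, 95% interval -1.47 to -0.37), and edgeR's quasi-likelihood fit gave an unadjusted p of 0.00313. Adjusted over all 14656 genes tested, p was 0.202 and did not pass the threshold of 0.05 (edgeR). The exact two-sided permutation test of this single gene gave p = 0.0159, the smallest that 4 libraries against 5 allow. All Ptbp1 shRNA libraries lay below all scrambled shRNA libraries for 2 of the 9 members, Rorb and Mef2c, and for 2.45% of all genes tested. DESeq2 called Rorb (adjusted p = 0.00965), among 701 of 15475 genes. The edgeR fit of the same contrast over all 18 libraries, with 1 spread for both experiments, also did (adjusted p = 0.0155). That fit called 1775 of 17779 genes. The other scalings, no filter and a covariate for empty bins in edgeR, and limma voom, did not call Rorb (adjusted p = 0.153 to 0.261). Leaving out single libraries gave adjusted p-values of 0.209 or more.

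In overexpression, Rorb had 50.2, 45.1, 45.1, 43.8 and 44.3 CPM in the Ptbp1 overexpression libraries, against 51.7, 24.9, 29.3 and 29.1 CPM in the control vector libraries. The Ptbp1 overexpression libraries lay close together, and 3 of the 4 control libraries lay below them all while control vector replicate 1 lay above them all. The log2 fold change was 0.44 (SE 0.18, 95% interval 0.06 to 0.81; p = 0.0265, adjusted p = 0.974, edgeR; exact two-sided permutation p = 0.0952). Without control vector replicate 1 the value was 0.72 and passed the threshold, as 1 of 9 genes called (edgeR adjusted p = 0.0357). That library and Ptbp1 overexpression replicate 1 had the highest interneuron marker sums of their experiment, and without both the value was 0.68 (adjusted p = 0.0724). The difference between the responses, overexpression minus silencing, was 1.36 for Rorb on the log2 scale (SE 0.31, edgeR adjusted p = 0.0637 over 17779 genes, fitted over all 18 libraries). It passed the threshold without Ptbp1 shRNA replicate 3 (1.57, adjusted p = 0.0304), without control vector replicate 1 (1.65, adjusted p = 0.0395) and in DESeq2 (1.34, adjusted p = 0.00158). DESeq2 called 871 genes for this difference, where edgeR called 40. These fits give both experiments 1 shared spread per gene, although the common biological coefficient of variation was 90.1% in silencing and 22.3% in overexpression.

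Mef2c (ENSMUSG00000005583, chr13:83504034-83667080, GRCm38) encodes a MADS box transcription factor that acts in activity dependent gene expression and synapse number in excitatory neurons. It had 275, 844, 846 and 524 CPM in the Ptbp1 shRNA libraries, against 1080, 1250, 1040, 993 and 1280 CPM in the scrambled shRNA libraries. The groups did not overlap, and the Ptbp1 shRNA libraries spread over a wider range than the scrambled ones. The log2 fold change was -0.86 (SE 0.29, 95% interval -1.48 to -0.24; p = 0.0106, adjusted p = 0.27, edgeR), and the exact two-sided permutation p was 0.0159. The contrast fitted over all 18 libraries, with 1 spread for both experiments, called it (edgeR adjusted p = 0.0233), among 1775 of 17779 genes. DESeq2 (adjusted p = 0.154) and limma voom (adjusted p = 0.1) did not. In overexpression, Mef2c had 806, 803, 876, 743 and 880 CPM in the Ptbp1 overexpression libraries, against 674, 865, 866 and 816 CPM in the control vector libraries. Its log2 fold change there was 0.03 with the narrowest interval of the 9 genes, -0.16 to 0.22. The difference between the responses was 0.89 (SE 0.31, edgeR adjusted p = 0.184).

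Reln (ENSMUSG00000042453, chr5:21884454-22344702, minus strand) had 128, 138, 97.5 and 267 CPM in the Ptbp1 shRNA libraries, against 206, 193, 200, 221 and 124 CPM in the scrambled shRNA libraries. Ptbp1 shRNA replicate 4 was the highest of all 9 libraries, so the groups overlapped, and the log2 fold change was -0.26 (95% interval -0.92 to 0.39, edgeR adjusted p = 0.824). Without that replicate the value was -0.64, and without Ptbp1 shRNA replicate 3 it was -0.09. In overexpression Reln had 160, 262, 246, 364 and 397 CPM in the Ptbp1 overexpression libraries, against 204, 344, 332 and 379 CPM in the control vector libraries (log2 fold change -0.14, 95% interval -0.67 to 0.39, edgeR adjusted p = 0.978).

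The exon counts include a very short exon near the 3′ end of Reln, shown here because every library had reads over it. A 6-base exon, number 64 of the 65 exons of transcript Reln-207 (chr5:21891562-21891567, GRCm38), is absent from transcript Reln-201. The junction is shown with and without it, with 30 bases of exon 63 before it and 30 of exon 65 after it in lower case and the 6 bases in capitals (GENCODE M21 transcripts, written 5′ to 3′).
Reln with the 6-base exon: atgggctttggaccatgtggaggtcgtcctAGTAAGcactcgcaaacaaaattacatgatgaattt
Reln without the 6-base exon: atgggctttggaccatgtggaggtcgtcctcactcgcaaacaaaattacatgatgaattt
Every library had reads over these 6 bases: 31 to 304 in the Ptbp1 shRNA, 89 to 188 in the scrambled shRNA, 46 to 95 in the Ptbp1 overexpression and 41 to 77 in the control vector libraries. The 130 bases just upstream of it, an exon extension in transcript Reln-205, had 0 to 6 reads. The bins do not count reads that skip the exon, so no share of transcripts with it is given. Its use relative to the rest of the gene differed by 0.1 on the log2 scale in each experiment, with an adjusted p of 1 in both (edgeR diffSpliceDGE).

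Calb1 (ENSMUSG00000028222, chr4:15881264-15908064) had 66.9, 65.9, 135 and 157 CPM in the Ptbp1 shRNA libraries, against 133, 218, 150, 72.4 and 87.9 CPM in the scrambled shRNA libraries. It had 187, 105, 104, 82.4 and 95.2 CPM in the Ptbp1 overexpression libraries, against 145, 70.4, 74.4 and 82.5 CPM in the control vector libraries. Both pairs of groups overlapped, and neither log2 fold change, -0.32 in silencing (95% interval -1.13 to 0.49) and 0.3 in overexpression (-0.26 to 0.86), passed the test (edgeR adjusted p = 0.828 and 0.974). Single libraries moved both values: in silencing the log2 fold change was -0.57 when Ptbp1 shRNA replicate 4 was left out and -0.06 when scrambled shRNA replicate 2 was, and in overexpression 0.05 without Ptbp1 overexpression replicate 1 and 0.6 without control vector replicate 1.

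In the overexpression experiment the libraries differed in Reln and Calb1 in opposite directions, whichever vector they had. Ptbp1 overexpression replicate 1 and control vector replicate 1 were the lowest in Reln, at 160 and 204 CPM, and the highest in Calb1, at 187 and 145 CPM. Their Reln to Calb1 ratios were 0.855 and 1.4, against 2.37 to 4.42 in the other Ptbp1 overexpression and 4.46 to 4.88 in the other control vector libraries. The same 2 libraries were lowest in Lef1, at 9.79 and 11.7 CPM, and lowest in Cux2, at 37 and 39.9 CPM. They also had the highest interneuron sums, 419 and 413 CPM, where the other 7 had 238 to 340, the highest deep layer sums, 920 and 950 CPM, and the lowest astrocyte sums, 363 and 496 CPM. All 12 interneuron markers averaged above 1 CPM in both groups of the experiment. The part of other cells in these levels was not tested. In silencing the ratios were 1.91, 2.09, 0.724 and 1.7 in the Ptbp1 shRNA libraries and 1.56, 0.885, 1.33, 3.06 and 1.41 in the scrambled shRNA libraries, and no such opposition of Reln and Calb1 was seen in the plot of these genes.

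**Figure D2:**
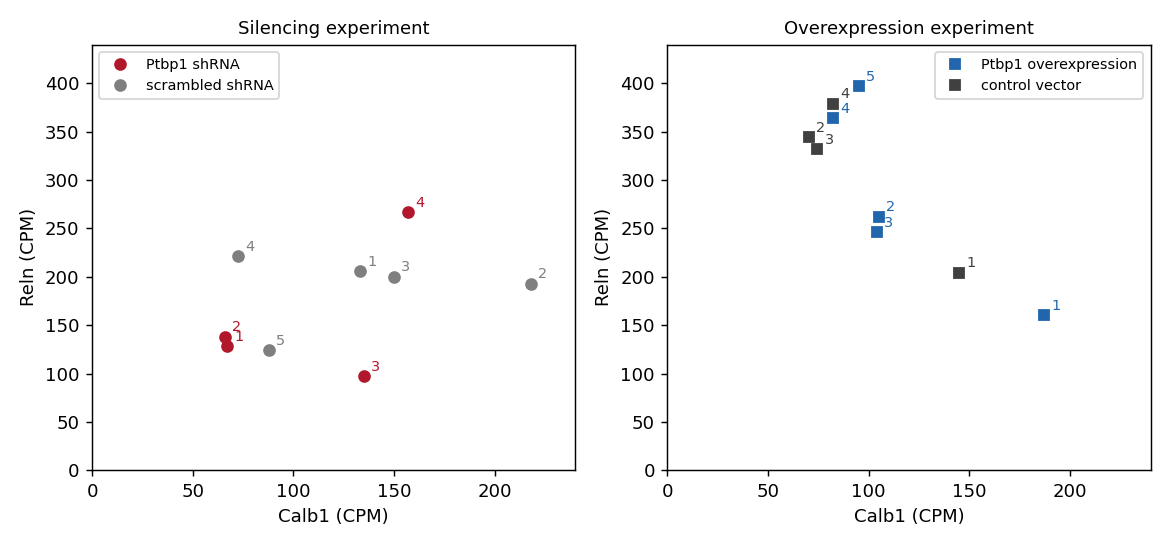
Reln against Calb1 in CPM, 1 point per library with its replicate number, silencing on the left and overexpression on the right. In overexpression, replicate 1 of each vector lies at the lower right, with Reln at 160 and 204 CPM.

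Wfs1 (ENSMUSG00000039474, chr5:36966104-36989205, minus strand) had 43.5, 9.91, 8.69 and 11 CPM in the Ptbp1 shRNA libraries, against 17, 40.5, 28.7, 14.5 and 29.1 CPM in the scrambled shRNA libraries. In 3 of the 4 Ptbp1 shRNA libraries it lay below all scrambled shRNA libraries, and in replicate 1 above them all. The log2 fold change was -0.51 (95% interval -1.76 to 0.74, edgeR adjusted p = 0.82), -1.4 without that replicate and -0.28 without Ptbp1 shRNA replicate 3. In overexpression it had 29.9 to 62.1 CPM (median 41.2) in the Ptbp1 overexpression libraries and 32.3 to 61.5 CPM (median 50.1) in the control vector libraries (log2 fold change -0.17, 95% interval -0.64 to 0.3).

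Cux1 and Cux2 encode homeodomain proteins of the upper cortical layers. Cux1 (ENSMUSG00000029705) had 47.5, 44.3, 32.7 and 101 CPM in the Ptbp1 shRNA libraries, against 135, 71.4, 49, 121 and 69 CPM in the scrambled shRNA libraries, a log2 fold change of -0.66 (95% interval -1.53 to 0.22, edgeR adjusted p = 0.597). Without Ptbp1 shRNA replicate 4, the highest of its group, it was -1.11. In overexpression it had 65.9 to 104 CPM with the Ptbp1 vector and 79.6 to 120 CPM with the control vector (-0.12, 95% interval -0.44 to 0.2). Cux2 (ENSMUSG00000042589) had 39.1, 20.8, 28 and 35.5 CPM in the Ptbp1 shRNA libraries, against 47.8, 26.8, 17.4, 42.5 and 0.0324 CPM in the scrambled shRNA libraries. The last value is 1 read, in scrambled shRNA replicate 5. The log2 fold change was 0.2 with a 95% interval of -1.84 to 2.23, and -0.13 without that library. In overexpression Cux2 had 37 to 69.8 CPM with the Ptbp1 vector and 39.9 to 71.9 CPM with the control vector, and both groups averaged 57.4 CPM (log2 fold change 0, 95% interval -0.42 to 0.42).

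Lef1 (ENSMUSG00000027985, chr3:131110471-131224356), a DNA binding partner of β-catenin in Wnt signalling, had 9.22, 5.53, 9.95 and 11.2 CPM in the Ptbp1 shRNA libraries, against 25.1, 5.82, 11.4, 33.7 and 7.36 CPM in the scrambled shRNA libraries. Scrambled shRNA replicates 1 and 4 stood above the rest, and the other 3 lay within or close to the range of the Ptbp1 shRNA libraries (log2 fold change -0.89, 95% interval -2.27 to 0.48, edgeR adjusted p = 0.664). Without scrambled shRNA replicate 4 the value was -0.47. In overexpression it had 9.79 to 31.8 CPM with the Ptbp1 vector and 11.7 to 27.1 CPM with the control vector (-0.01, 95% interval -0.66 to 0.63). Slc17a7 (ENSMUSG00000070570, chr7:45163949-45176142) had 132, 276, 136 and 138 CPM in the Ptbp1 shRNA libraries, against 131, 252, 142, 221 and 298 CPM in the scrambled shRNA libraries (log2 fold change -0.29, 95% interval -0.98 to 0.39). Without Ptbp1 shRNA replicate 2 the value was -0.63, and without scrambled shRNA replicate 5 it was -0.13. It had 335, 518, 395, 686 and 688 CPM in the Ptbp1 overexpression libraries, against 612, 598, 528 and 593 CPM in the control vector libraries (-0.15, 95% interval -0.55 to 0.25). The control libraries lay close together, inside the wider range of the Ptbp1 overexpression libraries.

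Over the 9 genes, 8 had a negative and 1 a positive log2 fold change in silencing, with a median of -0.51 against 0.03 over all genes tested, of which 48.8% had a negative one. None passed the threshold, and neither did any gene of the table (0 of 14656, 0%, edgeR), although 1639 genes had an unadjusted p under 0.05 and limma voom with quality weights called 69 and DESeq2 701. Of the members, 2 had an unadjusted p under 0.05, against 11.2% of all genes tested. In overexpression 3 were positive and 6 negative, with a median of -0.01 against 0 over all genes. None was called, where 0.0425% of all genes were (7 of 16480), and 1 member had an unadjusted p under 0.05, against 4.78% of all genes. No member had groups apart in overexpression, against 1.81% of all genes in either direction. For the difference between the responses, 0 members were called against 0.225% of all genes, and 2 had an unadjusted p under 0.05 against 14.6%.

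**Figure D3:**
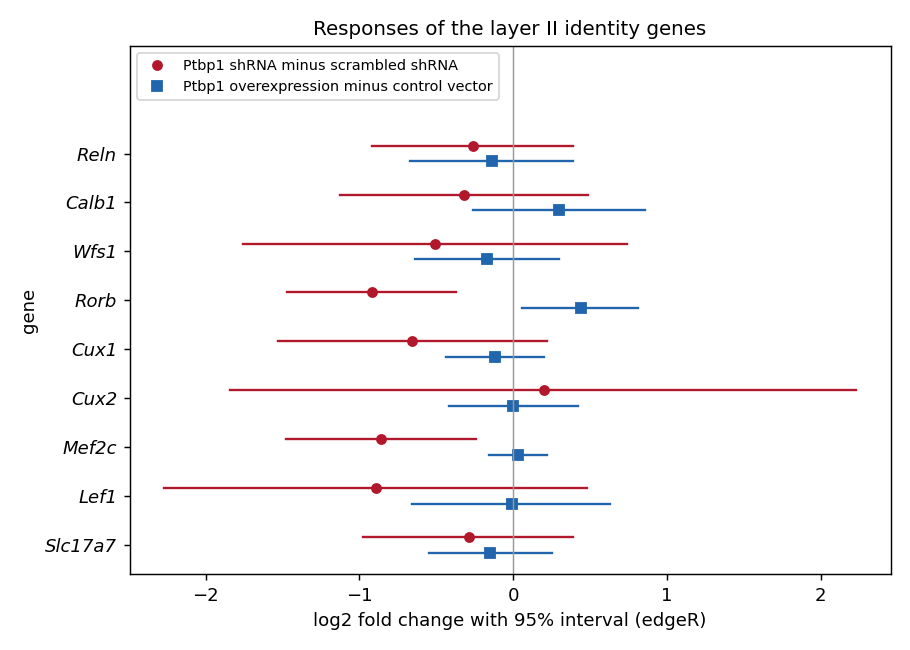
Log2 fold change of each identity gene with its 95% interval (edgeR), Ptbp1 shRNA minus scrambled shRNA as circles and Ptbp1 overexpression minus control vector as squares. In silencing the intervals of Rorb and Mef2c lie below 0, and in overexpression that of Rorb lies above it, from 0.06 to 0.81.

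Only some of the other sums moved with the lower values in silencing. Those of 5 genes listed for vesicular glutamate transport, Slc17a7 not among them, did not overlap. They were 728 to 1330 CPM in the Ptbp1 shRNA and 1440 to 1660 CPM in the scrambled shRNA libraries. All 5 genes were negative, with -0.76 as the median on the log2 scale. An unadjusted p under 0.05 (edgeR) was found for 2 of them, and none passed the threshold. Slc1a1, given below, is 1 of these 5 genes. Interneuron sums overlapped, at 267 to 500 CPM in the Ptbp1 shRNA and 388 to 501 CPM in the scrambled shRNA libraries. Oligodendrocyte sums did too, at 63 to 120 and 86.5 to 133 CPM. The deep layer sums given above did not overlap between the silencing groups, and those of overexpression were 804 to 920 CPM in the Ptbp1 overexpression and 678 to 950 CPM in the control vector libraries. Etv1, an ETS transcription factor, made up most of that sum, at 881 ± 208 CPM in the Ptbp1 shRNA and 1440 ± 159 CPM in the scrambled shRNA libraries (SD, n = 4 and 5; log2 fold change -0.71, edgeR adjusted p = 0.202). Tle4, a corepressor, had 92.2 ± 26.5 CPM in the Ptbp1 shRNA and 47.8 ± 7.6 CPM in the scrambled shRNA libraries (0.95, edgeR adjusted p = 0.237). Of the 8 deep layer genes 4 were negative and 4 positive. An unadjusted p under 0.05 (edgeR) was found for 3 of the negative and 1 of the positive ones. Of all genes tested, 11.2% had one. Pan-neuronal genes summed to 30600 to 64400 CPM in the Ptbp1 shRNA and 57200 to 73200 CPM in the scrambled shRNA libraries, and 5 of 6 were negative, 3 with an unadjusted p under 0.05. Of the 6 pan-neuronal genes all were negative in overexpression too, 2 with an unadjusted p under 0.05. Interneuron genes were negative for 10 of 11 tested in silencing, none with an unadjusted p under 0.05. Their part in the levels of the identity genes was not tested, and in bulk RNA fewer cells of a type and less RNA per cell cannot be told apart.

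**Figure D4:**
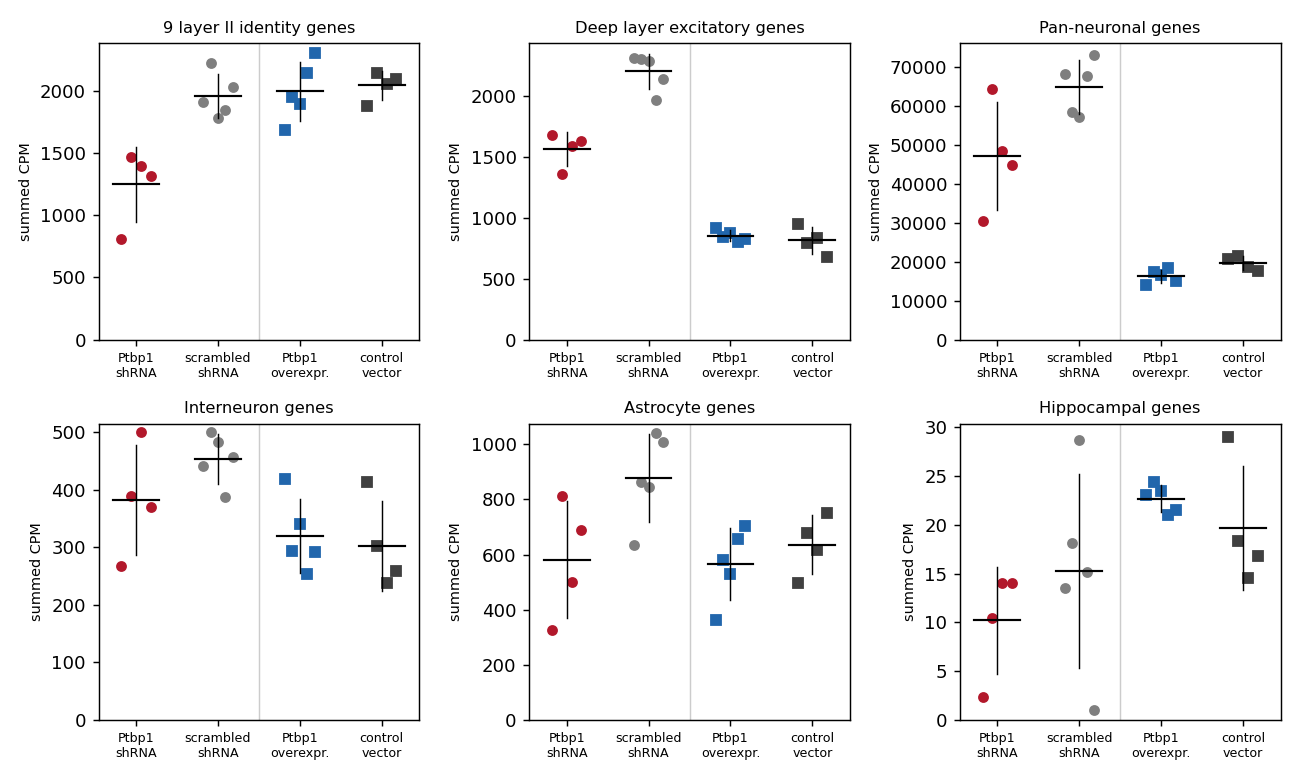
Summed CPM of 6 gene lists (vertical axes, from 0), 1 point per library, with group mean and SD. The identity gene sum (808 to 1470 CPM) and the deep layer sum (1360 to 1680 CPM) of the Ptbp1 shRNA libraries lie below those of all scrambled shRNA libraries. Mef2c, the largest part of the identity gene sum, averaged 622 CPM in the Ptbp1 shRNA and 1130 CPM in the scrambled shRNA libraries. Of the identity genes, only Mef2c and Rorb had groups apart in silencing.

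Genes that act with the members were read from lists chosen with earlier results of these data known, and none of them passed the threshold in either experiment. Of 10 genes of reelin signalling, 8 were positive and 2 negative in silencing. Dab1, the adaptor that is phosphorylated when reelin binds its receptors, averaged 169 ± 56.3 CPM in the Ptbp1 shRNA and 382 ± 53.8 CPM in the scrambled shRNA libraries (SD, n = 4 and 5), which gave -1.18 on the log2 scale with an SE of 0.25 (edgeR adjusted p = 0.11). Rapgef1, an exchange factor further down the pathway, averaged 54.9 ± 8.68 CPM in the Ptbp1 shRNA and 15 ± 7.95 CPM in the scrambled shRNA libraries (1.87, SE 0.44, edgeR adjusted p = 0.14). In overexpression 7 of the 10 were negative, and Dab1 averaged 210 ± 8.84 CPM with the Ptbp1 vector and 242 ± 28.5 CPM with the control vector (-0.2, edgeR adjusted p = 0.974).

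Slc1a1, a neuronal glutamate transporter of the plasma membrane, averaged 75.7 ± 23.8 CPM in the Ptbp1 shRNA and 144 ± 29 CPM in the scrambled shRNA libraries (log2 fold change -0.93, edgeR adjusted p = 0.227). The 4 tested genes of the ROR and clock group were negative in silencing, and Nr1d1, a repressor that binds the same DNA elements as ROR receptors, averaged 54.7 ± 31.8 CPM in the Ptbp1 shRNA and 127 ± 60 CPM in the scrambled shRNA libraries (-1.21, edgeR adjusted p = 0.381). Rora, the closest relative of Rorb among them, averaged 180 ± 70.6 CPM in the Ptbp1 shRNA and 257 ± 55.2 CPM in the scrambled shRNA libraries (-0.52, edgeR adjusted p = 0.532).

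Of 5 tested partners of MEF2 proteins, 2 were positive and 3 negative in silencing, with a median of -0.04. The positive ones were Hdac5 and Hdac4, deacetylases that repress MEF2 targets. Hdac5 had 39.9 ± 25.1 CPM in the Ptbp1 shRNA and 12.1 ± 5.82 CPM in the scrambled shRNA libraries (log2 fold change 1.73, edgeR adjusted p = 0.231), and Hdac4 had 33.6 ± 29.3 CPM in the Ptbp1 shRNA and 12.2 ± 8.96 CPM in the scrambled shRNA libraries (1.47, edgeR adjusted p = 0.57). Calcium buffers other than Calb1 were positive for 3 and negative for 5 of 8, and Ncald, a neuronal calcium sensor, had 117 ± 28.2 CPM in the Ptbp1 shRNA and 200 ± 46.1 CPM in the scrambled shRNA libraries (-0.77, edgeR adjusted p = 0.267). Among the genes of endoplasmic reticulum calcium and stress, Hspa5, the chaperone BiP, had 123 ± 42.3 CPM in the Ptbp1 shRNA and 63.8 ± 27.2 CPM in the scrambled shRNA libraries (0.95, edgeR adjusted p = 0.34). Atp2a2, the calcium pump of that membrane, had 417 ± 50.3 CPM in the Ptbp1 shRNA and 604 ± 66.2 CPM in the scrambled shRNA libraries (-0.53, edgeR adjusted p = 0.267). Of 15 other superficial excitatory genes tested in silencing, 9 were positive and 6 negative, with a median of 0.39 where the 9 identity genes had -0.51. Camk2a, a kinase subunit of excitatory synapses, averaged 1470 ± 551 CPM in the Ptbp1 shRNA and 2720 ± 715 CPM in the scrambled shRNA libraries (-0.89, edgeR adjusted p = 0.237). It alone of the 15 had an unadjusted p under 0.05 (edgeR). The next smallest p was that of Mdga1, which was positive (log2 fold change 3.2, edgeR adjusted p = 0.477). Its level was low, at 3.18 ± 2.18 CPM in the Ptbp1 shRNA and 0.342 ± 0.558 CPM in the scrambled shRNA libraries. Of the 6 tested Wnt partners of Lef1, 2 were positive and 4 negative, and of 4 CUT and SATB genes 2 were positive and 2 negative, none with an unadjusted p under 0.05.

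No exon bin of the 9 genes was called for a change in relative use. In silencing 147 of their 278 bins were tested and 0 called, against 0.0012% of all bins (1 of 83164), and in overexpression 207 were tested and 0 called, against 0.034% of all bins (40 of 117580; edgeR diffSpliceDGE). Every member bin had an adjusted p of 1. An unadjusted p under 0.05 was found for 11 member bins in silencing, where 1.96% of all bins had one, and for 3 in overexpression, where 1.37% did. The smallest unadjusted p in silencing was 0.00335, for bin 002 of Mef2c, and 0.00368 for a 243-base bin of Reln (chr5:21910813-21911055). That Reln bin held 0.0542% ± 0.0423 of the gene's bin counts in the Ptbp1 shRNA libraries and 0.976% ± 0.89 in the scrambled shRNA libraries (SD, n = 4 and 5). In overexpression the smallest was 0.0126, for bin 001 of Mef2c.

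The share of reads in the last exon was read for Slc17a7, Calb1 and Rorb only. The experiments were apart in it for Rorb and, narrowly, for Calb1, and overlapped for Slc17a7. The last exon of Slc17a7 took 86.5%, 88.7%, 87.1% and 39.4% of its bin counts in the Ptbp1 shRNA libraries, against 69.1% to 80.8% in the scrambled shRNA libraries, and 50.8% to 57.5% in the Ptbp1 overexpression libraries, against 46.9% to 61.9% in the control vector libraries. The last exon of Rorb took 94.9% to 98.7% in the Ptbp1 shRNA and 86.8% to 99.5% in the scrambled shRNA libraries, and 68.7% to 73.6% in the Ptbp1 overexpression and 69.2% to 78% in the control vector libraries. Of 116 well covered member bins, 1, 13, 14 and 6 were at 0 in the Ptbp1 shRNA libraries and 0, 3, 0, 0 and 12 in the scrambled shRNA libraries. None of these bins was at 0 in any of the 9 libraries of the overexpression experiment. The empty readings numbered 28 over the 51 such bins of Reln, 12 over the 21 of Cux1, 4 over the 5 of Cux2, 3 over the 4 of Lef1 and 2 over the 11 of Slc17a7, and the other 4 genes had 0. The part of this uneven coverage in the responses was not tested. Over the well covered bins of all genes, Ptbp1 shRNA replicate 2 and scrambled shRNA replicate 5 had the highest shares at 0, 8.3% and 7.61%. Without these 2 libraries the log2 fold changes in silencing were -0.84 for Rorb and -0.98 for Mef2c (edgeR adjusted p = 0.323 for each), -0.26 for Wfs1, -0.46 for Slc17a7, 0.02 for Cux2, -0.32 for Reln, -0.26 for Calb1, -0.64 for Cux1 and -0.91 for Lef1.

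**Figure D5:**
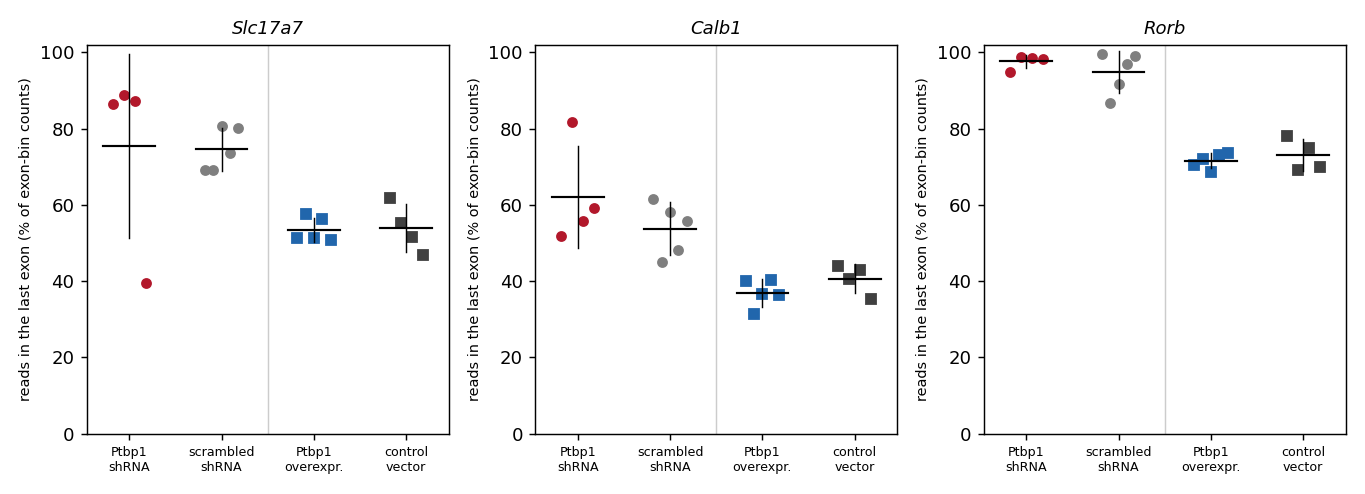
Share of a gene's exon-bin counts that lies in its last exon, in percent, for Slc17a7, Calb1 and Rorb, 1 point per library with group mean and SD. The silencing libraries lie above those of overexpression for Rorb, at 86.8% or more against 78% or less. They also do for Calb1, by a narrow gap, at 44.9% or more against 43.9% or less. For Slc17a7 the experiments overlap, with Ptbp1 shRNA replicate 4 at 39.4%.

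Alternative first exons of Lef1, annotated further downstream than its first exon of 1208 bases, share a bin of 15 bases (chr3:131112806-131112820), and few reads lay in this bin. In overexpression it had 2, 9, 6, 0 and 1 reads in the Ptbp1 overexpression libraries, against 4, 10, 2 and 1 in the control vector libraries, while the upstream first exon had 120, 203, 180, 160 and 114 in the Ptbp1 overexpression libraries, against 69, 191, 136 and 118 in the control vector libraries. In silencing the 15-base bin had 0 reads in all 9 libraries, and the upstream first exon ranged between 0 and 119 reads in the Ptbp1 shRNA libraries and 0 and 250 in the scrambled shRNA libraries. The upstream first exon, 1208 bases long, was thus read in all 9 libraries of overexpression and at 0 in 1 library of each silencing group.

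The genes whose levels most resembled those of a member were sought over the 18 libraries, with each library's log2 CPM taken as its deviation from the group mean and scaled by the spread of its experiment, among the 11452 genes that averaged 1 or more in log2 CPM in both experiments. The closest were Ttc17 for Reln (Pearson r = 0.92), Rbm24 for Calb1 (0.83), Tstd3 for Wfs1 (0.85), Nek4 for Rorb (0.86), Luzp1 for Cux1 (0.84), Gm14305 for Mef2c (0.93), Syndig1 for Lef1 (0.87) and Xk for Slc17a7 (0.92). The second closest were Susd4, Btbd3, Spdya, Ten1, Pex5l, Gm11007, Tcf25 and Atp1b1. For Cux2 they were ENSMUSG00000072641, whose exons the authors' flattened annotation joins with those of Cux2 (r = 0.9), and Camk2g (0.9). These values describe what varied together between libraries that share their processing, after a search over all genes, and carry no test.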

How the data were processed

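RNA from translating ribosomes was measured in 18 libraries, grouped by the treatment label. The authors deposited whole-number counts per gene for each experiment and counts per exon bin for each library, none normalized. The build was mm10 and the tools named are STAR (2.5.3a) and HTSeq, per the submitters' processing notes, with the annotation release and strand setting not given in the sources used here. Reads of Reln, Cux1, Cux2 and Lef1 may therefore include those of genes that overlap them.

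From the counts, edgeR 4.0.16 was run per experiment on all genes (filterByExpr, TMM scaling, robust quasi-likelihood F test, Benjamini-Hochberg adjusted p under 0.05). The difference between the responses came from 1 fit over all 18 libraries. Relative exon use was tested with edgeR's diffSpliceDGE. Single values were tested by exact two-sided permutation of log2(CPM + 0.5). Standard errors are the log2 fold change over the square root of F, and intervals are at 95%. Scripts were tested on simulated data. Intervals, floors and depth cover counting error and the spread between mice only.

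Gene and bin coordinates come from GENCODE M21 (GRCm38). Bins were rebuilt from it and used with coordinates where their number equalled the deposited one, which held for 6 of the 9 genes and not for Cux1, Cux2 and Mef2c. The 5 summary lines of each exon file stayed out of all totals.

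The members and lists were chosen with earlier results of these data known. All members and Ptbp1 are named, with the 2 most alike genes of each member and, from each list, the genes past the threshold or the 2 with the smallest p; Etv1 and others named follow that rule, and 1 result that it selects is not reported here. Alternatives were RLE (DESeq2 size factors) and upper quartile scaling, no filter, DESeq2 1.42.0, limma 3.58.1 voom with quality weights, 1 fit over all libraries, the share of empty bins as a covariate, and leaving out libraries.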

Additional observations from a re-analysis of the deposited data

Results flagged for a closer look

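Of 40 sets of values, 9 members and Ptbp1 in 4 groups, 8 held a library whose gap to its neighbour took up most of the group's range. The critical value used flags about 1 in 20 independent sets of normally distributed values. These sets were in CPM and share libraries, so 8 of 40 cannot be set against that rate. Ptbp1 overexpression replicate 1 stood apart in Calb1, at 187 CPM where the others had 82.4 to 105, and in Rorb, at 50.2 CPM where the others had 43.8 to 45.1. Control vector replicate 1 stood apart in Calb1, at 145 CPM against 70.4 to 82.5, and in Rorb, at 51.7 CPM against 24.9 to 29.3.

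In silencing, Ptbp1 shRNA replicate 1 had 43.5 CPM of Wfs1, where the others had 8.69 to 11. Ptbp1 shRNA replicate 2 had 276 CPM of Slc17a7, where the others had 132 to 138. Scrambled shRNA replicate 2 had 182 CPM of Rorb, where the others had 130 to 143. Scrambled shRNA replicate 5 had 124 CPM of Reln, where the others had 193 to 221.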

How the results depend on the processing

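The count of genes called in silencing, 0 in edgeR, was 11 without a filter, 8 with the share of empty bins as a covariate, 69 with limma voom, 701 with DESeq2 and 1775 when the contrast was fitted over all 18 libraries, which share 1 estimate of the spread; leaving out single libraries gave 0 to 5. The count in overexpression, 7, was 39 with DESeq2 and 0 over all 18 libraries. The count for the difference between the responses, 40, was 17 without a filter and 871 with DESeq2, and 1 to 174 without single libraries, the ends being control vector replicate 4 and Ptbp1 shRNA replicate 4. Exon bins called in silencing, 1, numbered 3 with limma voom and diffSplice and 0 to 3 without single libraries. The causes were not tested.

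Of the members in silencing, Cux2 alone turned sign, with a range of -0.13 to 0.51 without single libraries; Rorb stayed between -1.13 and -0.82 and Mef2c between -1.04 and -0.61. In overexpression, ranges without single libraries crossed 0 for Reln (-0.3 to 0.01), Cux1 (-0.21 to 0.03), Cux2 (-0.14 to 0.13), Mef2c (-0.05 to 0.07) and Lef1 (-0.22 to 0.17). Other sign changes were 0 and 0.01 for Cux2 with RLE and upper quartile scaling, 0 over all 18 libraries and 0.11 with the covariate, which also gave 0.01 for Reln and 0.24 for Lef1, -0.01 for Mef2c with limma voom, and 0.03 for Wfs1 and -0.04 for Mef2c without the 2 libraries with the highest interneuron sums, an alternative chosen after seeing the data. For the difference between the responses, ranges without single libraries crossed 0 for Reln (-0.04 to 0.51), Cux2 (-0.49 to 0.14) and Slc17a7 (-0.01 to 0.48). The Ptbp1 difference in silencing ranged between -0.93 and 0.56 without single libraries. No paired analysis was possible because replicate numbers were given in accession order and only name libraries.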
